A study of Mus musculus with 12 samples.

Results

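RNA sequencing compared CT26 cells, a mouse colon carcinoma line, after 24 h with the particle treatment labelled NP@M and after 24 h with PBS, the buffer control. The comparison took 6 of the 12 libraries of the series by their treatment label: N1, N2 and N3 with PBS, and N4, N5 and N6 with NP@M. The other 6 libraries were 3 labelled NP-D@M and 3 labelled NP-D@MP. In the main analysis they entered only the pooled estimate of spread and the filter that chose the genes tested. The labels do not explain the abbreviations. The series title speaks of a nanodrug modified with an engineered membrane of cancer cells, and NP@M is the particle group without a D in its name, so it is called the carrier here. The labels name no allele, no other agent and no dose for these groups. Whether libraries of 1 group stem from different cultures is not stated in the labels either, and p-values therefore reflect library-to-library spread alone, some of which could be technical.

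Particles coated with cell membrane are generally taken up by endocytosis and pass through endosomes to lysosomes, and lipids and carrier material can engage the sterol, oxidative and protein stress pathways. A carrier control asks how much of such a response comes without the drug. Genes also differ in the share of G and C bases in their transcripts and in their length, and differences between libraries are commonly checked for trends along both.

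Differences between the groups partly followed the base composition of transcripts. The coding sequences of 3 genes show what low and high GC content look like. Each line holds the first 150 bases of the coding sequence of the longest protein-coding transcript, 5′ to 3′, with every G and C in capitals. Of the genes named below with at most 10% of their sequence shared with other genes, Usmg5 had the lowest GC content in these bases among the 12 higher with NP@M. Slc35e1 had the highest among the 12 lower. Cox8a, a lower gene of the respiratory chain, is the third.
Usmg5: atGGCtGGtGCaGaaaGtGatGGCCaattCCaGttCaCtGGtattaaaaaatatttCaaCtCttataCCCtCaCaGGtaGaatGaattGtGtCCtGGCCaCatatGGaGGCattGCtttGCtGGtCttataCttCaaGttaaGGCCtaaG
Slc35e1: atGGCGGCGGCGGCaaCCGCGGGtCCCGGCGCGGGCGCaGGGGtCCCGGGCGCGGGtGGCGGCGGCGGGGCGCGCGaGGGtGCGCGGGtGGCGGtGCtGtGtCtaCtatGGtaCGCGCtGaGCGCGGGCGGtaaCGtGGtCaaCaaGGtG
Cox8a: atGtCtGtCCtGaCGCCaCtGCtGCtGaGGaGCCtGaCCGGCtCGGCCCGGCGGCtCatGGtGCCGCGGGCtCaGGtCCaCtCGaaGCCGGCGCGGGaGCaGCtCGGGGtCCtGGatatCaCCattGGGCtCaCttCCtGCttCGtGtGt
G and C made up 41.3% of the bases shown of Usmg5 (chr19:47083471-47090625, minus strand, GRCm38), 77.3% of those of Slc35e1 (chr8:72480641-72492614, minus strand) and 66.7% of those of Cox8a (chr19:7215158-7217616, minus strand). Over the whole coding sequence the shares were 41.4%, 62.1% and 65.2%. The first bases do not sort the genes by direction: Fam92a and Tmem65, both higher with NP@M, held 77.3% and 79.3% of G and C there, and the GC content used below is that of the whole transcript (Usmg5 42.2%, Slc35e1 53.2%, Cox8a 58.5%).

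The values were FPKM, reads scaled by gene length and library size. The reads in the table, in mega-reads (M), were 13.9 to 15.7 M with PBS and 15.1 to 15.5 M with NP@M, so the depth of the groups overlapped. Mitochondrial genes held 3.37%, 3.30% and 3.39% of the reads in N1, N2 and N3, and 4.03%, 4.2% and 3.76% in N4, N5 and N6. The groups did not overlap, and the exact two-sided permutation p was 0.10, the smallest that 3 against 3 libraries allow (Benjamini-Hochberg adjusted p = 0.225 over the 9 library measures compared). Ribosomal protein genes held 5.92% to 6.62% and 5.78% to 6.39% of the reads, which overlapped. Of 10 colon epithelium markers, Krt18 and Krt20 were among the genes analysed, with a summed 15.3 to 18.7 FPKM with PBS and 15.1 to 16.4 FPKM with NP@M. Myeloid markers, 4 of 10 (Ptprc, Cd68, Lyz2 and Cd14), summed to 8.88 to 10.7 FPKM and 10.1 to 10.6 FPKM. Fibroblast markers, 6 of 9 in the table, summed to 71.9 to 86.6 FPKM and 70.6 to 73.1 FPKM. The endothelial pair Pecam1 and Vwf stayed at or below 0.103 FPKM, the retinal gene Sag at or below 0.167 FPKM, and the B cell gene Jchain was listed at 0 in the 6 libraries.

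Most genes shifted by little, and a single gene passed the test. Of 10101 genes tested with limma, 0 were called higher and 1 lower at a Benjamini-Hochberg adjusted p under 0.05, a background of 0.00990%. The SD of the log2 differences over all genes was 0.22, on the log2(FPKM + 1) scale that holds for every log2 value below. An unadjusted p under 0.05 was found for 1092 genes (10.8%), 442 higher (4.38%) and 650 lower (6.44%). This number depended on the spread being pooled over all 12 libraries. With limma on only the 6 libraries compared, it was 2424 genes, 992 higher and 1432 lower. The 3 NP@M libraries lay wholly above the 3 PBS libraries in 1254 genes (12.4%) and wholly below in 1616 (16.0%), together 28.4%. Limma voom on reads recovered from the FPKM values called 0 genes at 0.05, with 2467 at an unadjusted p under 0.05. Its smallest adjusted p was 0.0513, and 918 genes (9.09%) had one under 0.1, 399 higher and 519 lower.

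The gene called was Gm24837 (ENSMUSG00000089308), a predicted small nucleolar RNA, a class that guides chemical modification of other RNAs. The whole 81-base transcript lies at chr4:41211502-41211582 on the minus strand (GRCm38), and G and C, in capitals, make up 45.7% of it.
Gm24837: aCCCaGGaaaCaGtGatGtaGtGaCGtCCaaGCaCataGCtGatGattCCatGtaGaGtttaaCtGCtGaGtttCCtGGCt
Its FPKM were 2.01, 2.01 and 1.75 with PBS and 0 in each NP@M library, which rested on 5, 5 and 4 reads against 0, 0 and 0 (limma log2 -1.55, SE 0.074, adjusted p = 2.64e-06). It passed the filter on low values through the PBS libraries alone, so a gene that entered in this way had to differ, and its p is given as a description. Against a floor of 3 reads per NP@M library it was 1.58-fold lower. The floor covers counting error in the NP@M libraries only. The PBS mean was taken as measured, so the fold is not a lower bound. Limma voom gave an adjusted p of 0.0595, so the call was not made on the recovered reads.

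Differences between the groups followed GC content. Among the 1009 genes of lowest GC content (27.5% to 41.6%) the median log2 difference was 0.21, and NP@M lay wholly above PBS in 37.5% of them and wholly below in 0.991%. Among the 1009 of highest GC content (58.0% to 75.5%) the median was -0.22, with 0.396% wholly above and 37.4% wholly below. The medians of the 8 groups between declined step by step, from 0.15 and 0.09 at the low end through 0.0032 in the fifth to -0.13 and -0.18 at the high end. Across the 10101 genes, which are not independent replicates, Pearson's r between GC content and log2 difference was -0.61 and Spearman's rho -0.68. A smooth curve on GC content took up 37.4% of the variance of the log2 differences, a curve on gene length 3.8% and a curve on mean level 0.80%.

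**Figure D1:**
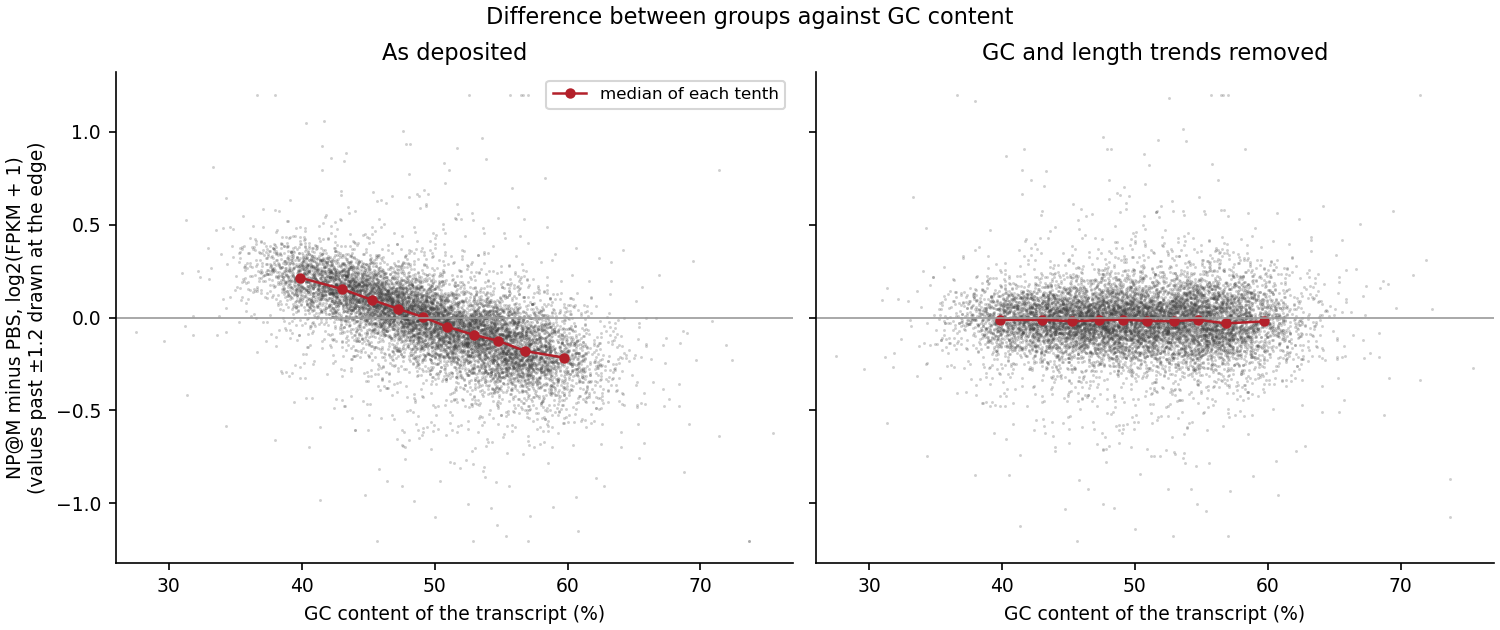
Each point is 1 gene, placed by the GC content of its longest transcript (percent) and by its difference between the group means, NP@M minus PBS, in log2(FPKM + 1), with values past ±1.2 drawn at the edge. Red points are medians of 10 groups of genes of equal size by GC content: they run from 0.21 to -0.22 as deposited (left) and lie between -0.03 and -0.01 once trends on GC content and length were taken out of each library (right).

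The same measure in single libraries showed that the groups met at their edges. The end-to-end value of a library was the median of its 10% of genes lowest in GC content minus that of the 10% highest, each gene taken relative to its mean over the 6 libraries. It was -0.22, -0.42 and 0.00022 in N1, N2 and N3, and 0.042, 0.40 and 0.20 in N4, N5 and N6. All 3 carrier libraries were above all 3 PBS libraries, but N4 exceeded N3 by only 0.042. The range inside PBS was 0.42 and inside NP@M 0.36, against a difference of means of 0.43 (PBS -0.22 ± 0.21, NP@M 0.22 ± 0.18, SD, n = 3). The exact two-sided permutation p was 0.10, the smallest the design allows. PBS N2 and NP@M N5 were the steepest libraries of their groups, and PBS N3 and NP@M N4 were nearly flat. The difference was 0.33 without N2 and 0.34 without N5, and the groups stayed apart in both.

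**Figure D2:**
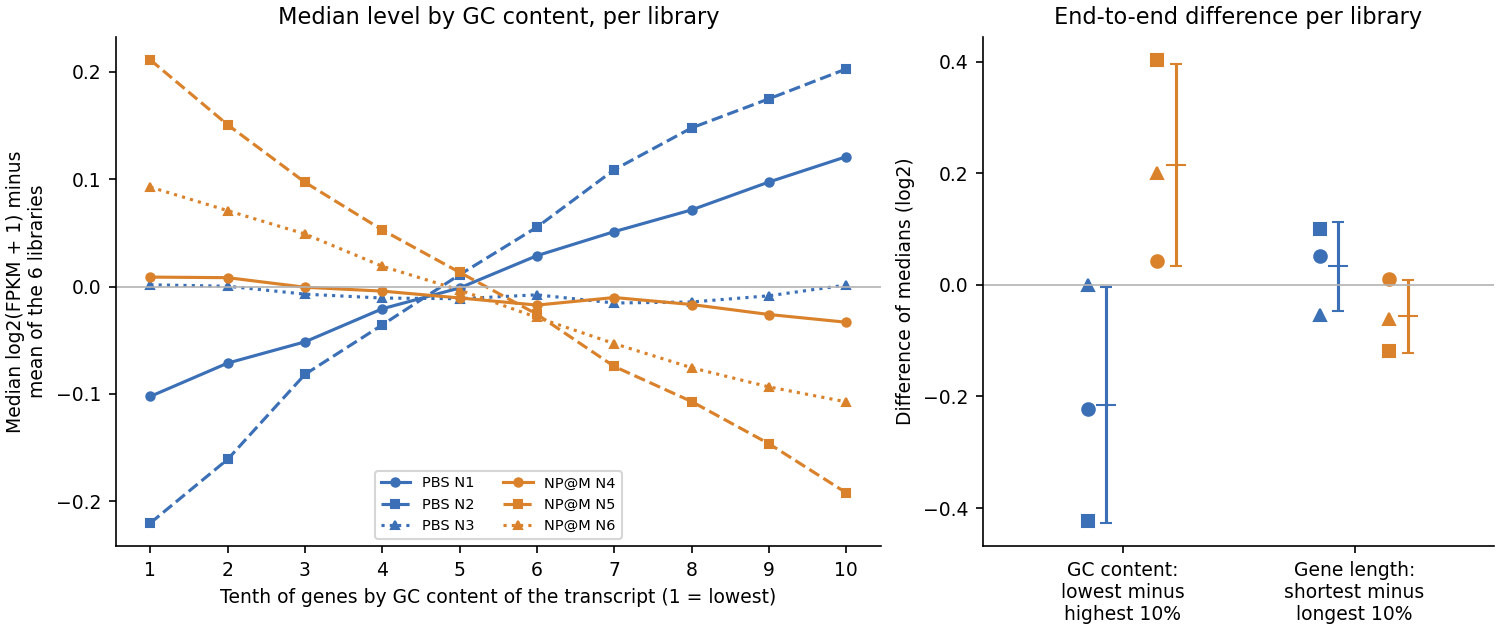
Left, the median level of 10 groups of genes ordered by GC content (horizontal axis, 1 is lowest) in each of the 6 libraries, relative to the mean of the 6 in log2(FPKM + 1). Right, the end-to-end value of each library for GC content and gene length, with the group mean and SD (n = 3) beside the points: for GC content PBS N3 (0.00022) and NP@M N4 (0.042) nearly coincide, and for length the groups overlap.

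Gene length showed a weaker trend. The median of the shortest 10% of genes minus that of the longest 10% was 0.052, 0.10 and -0.054 in N1, N2 and N3, and 0.011, -0.12 and -0.061 in N4, N5 and N6. The groups overlapped, since N4 lay between N3 and N1, and the difference of -0.089 had an exact permutation p of 0.20. It was -0.15 in protein-coding genes, -0.16 with a pseudocount of 0.1 and -0.059 without NP@M replicate 5. Without PBS replicate 3 (-0.13) or NP@M replicate 4 (-0.12) the groups did not overlap. With the GC trend taken out first, the length difference was -0.023 (exact permutation p = 0.50). Conversely, the GC trend was seen in short, middle and long genes alike, with genes split into 3 groups by GC content and 3 by length. From short to long, the group lowest in GC had medians of 0.10, 0.15 and 0.15, and the highest -0.17, -0.18 and -0.16.

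Chromosomes differed in the same way. Over the 19 autosomes the median log2 difference ran from -0.081 on chromosome 7 (median GC content 53.2%) to 0.067 on chromosome 13 (47.3%). Pearson's r between median GC content and median difference was -0.96, a description over 19 points that share the same 6 libraries. Chromosome X, with a median GC content of 46.5%, stood at 0.064. With both trends removed, the autosomal medians spanned only -0.030 to 0.0035.

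Once smooth trends on GC content and length had been taken out of each library, the SD of the log2 differences went from 0.22 to 0.17 and the genes with an unadjusted p under 0.05 went from 1092 to 512, 173 higher and 339 lower. With limma on only the 6 libraries compared, the genes with an unadjusted p under 0.05 went from 2424 to 1380. Groups did not overlap in 788 genes higher (7.80%) and 1265 lower (12.5%). The curves were also taken out of genes at or near 0, where this step alone can set the groups apart. Of 29 small nuclear RNAs, 0% lay wholly below PBS as deposited and 51.7% after removal. Gdf15, with a mean of 0.023 FPKM with PBS and 0 with NP@M, came to lie wholly above. Counts after removal include such genes. Gm24837 remained the single call (limma adjusted p = 0.000798), with Rps28 next at 0.0835. With limma's trend and robust settings the single call was Rps28 instead (adjusted p = 0.021), and Gm24837 was not called. Between single libraries, the SD of log2 differences was 0.20 to 0.24 within PBS, 0.24 to 0.25 within NP@M and 0.23 (N3 and N4) to 0.36 (N2 and N5) across. With both trends removed these became 0.18 to 0.20, 0.22 to 0.24 and 0.22 to 0.28. Pairs within NP@M overlapped with pairs across the groups both before and after. Pairs within PBS overlapped with them before, and lay wholly below them after (0.184 to 0.199 against 0.216 to 0.277).

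The genes most apart between the groups, 12 in each direction with at least 5 FPKM in the higher group, carried the same composition. Of the 12 higher, 10 had a GC content below 50%, and of the 12 lower, 10 above 50%. None was called (limma adjusted p = 0.448 for each of the 24). With limma on only the 6 libraries compared, their adjusted p was 0.129 to 0.151. Folds ran from 1.33 to 1.59 upward and from 0.458 to 0.774 of PBS downward. With both trends removed, the difference shrank in 9 of the higher and 11 of the lower genes, while the groups stayed apart in 11 and 12 of them.

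Among the higher genes were Rpl39, Rps28 and the copies Rpl39-ps and Rps12-ps3, all of ribosomal protein sequence. Of the 12 higher genes, 5 had over 50% of their sequence shared with other genes. These were Rps12-ps3 (100%), Bnip3 (62.3%), Zfp984 (57.5%), Rps28 (56.4%) and Rpl39-ps (52.4%). Their reads could have been assigned to one copy or another, and Rps12-ps3 was not summed with its related genes. Rpl39 (ENSMUSG00000079641), a protein of the large ribosomal subunit, had 200.3, 192.5 and 222 FPKM with PBS and 308.3, 310.5 and 358.6 FPKM with NP@M, a ratio of means of 1.59 (log2 0.67, SE 0.14). The lowest carrier library was above the highest PBS library, and with both trends removed the log2 difference was 0.67 (limma adjusted p = 0.591). Rps28, a protein of the small ribosomal subunit, had 15.9, 18.4 and 16.6 FPKM against 25.1, 26.01 and 27.4 FPKM. Unlike most higher genes it is rich in GC (56.3%), and its log2 difference grew from 0.60 to 0.74 when the trends were removed (limma adjusted p = 0.448 and 0.0835).

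Rap1a, a small GTPase of cell adhesion, and Usmg5, a small protein bound to ATP synthase, showed the more usual pattern. Rap1a (GC content 38.9%) had 19.5, 18.5 and 20.9 FPKM against 24.5, 30.0 and 26.4 FPKM, and its log2 difference went from 0.44 to 0.20. Usmg5 had 89.9, 74.9 and 93.1 FPKM against 115.3, 110.9 and 128 FPKM, and went from 0.46 to 0.34. Both stayed apart, with more of the difference of Rap1a lying along the trends. Bnip3, a receptor for the removal of mitochondria, went from 0.51 to 0.33, and Stk3, a kinase of the Hippo pathway, from 0.36 to 0.17. Tmem65 (0.35 to 0.22), Fam92a (0.35 to 0.18), Zfp984 (0.42 to 0.14) and the splicing factor gene Srsf10 (0.38 to 0.17) likewise shrank, and Srsf10 no longer separated the groups.

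**Figure D3:**
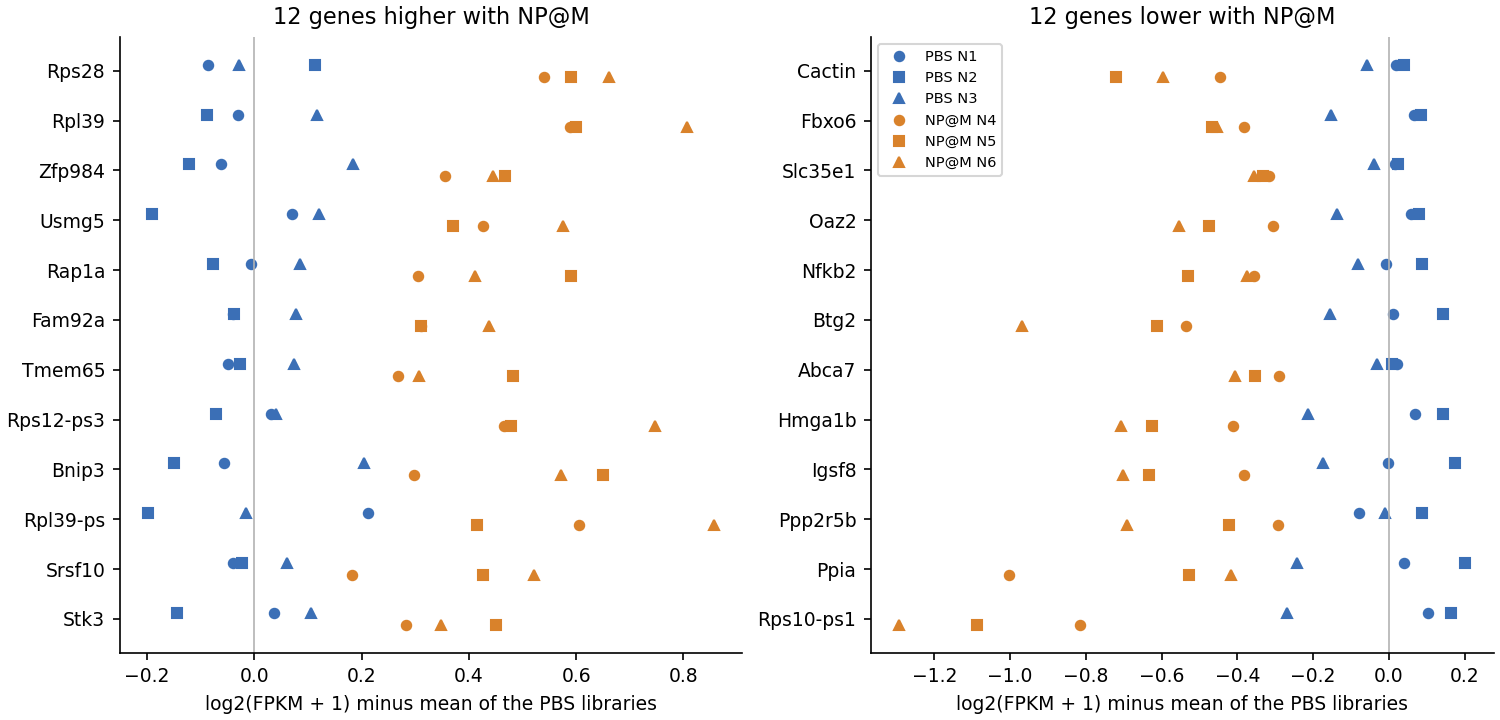
Levels of the 12 higher and 12 lower genes in each library, in log2(FPKM + 1) relative to the mean of the PBS libraries; blue points are PBS and orange points NP@M. In all 24 genes the 3 points of a group lie on one side of the other group, which the rule that chose them required; N4 lies nearest to PBS in several of the higher genes, Rap1a and Srsf10 among them.

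Among the lower genes were Btg2, Cactin and Nfkb2. The list of NF-kB pathway genes and targets had a median of 0.0044, with 7 members above and 7 below 0. Of the 14, 1 lay wholly above PBS and 2 wholly below, against 12.4% and 16.0% of all genes. Btg2, an antiproliferative gene induced by p53 and growth factors, had 7.30, 8.09 and 6.39 FPKM with PBS and 4.68, 4.38 and 3.20 FPKM with NP@M, a log2 difference of -0.71 (SE 0.16). Its GC content of 49.7% lies at the middle of all genes, and with both trends removed the difference was -0.70 (limma adjusted p = 0.448 and 0.732). Cactin, a splicing and NF-kB regulator, had 10.01, 10.2 and 9.45 FPKM against 6.99, 5.60 and 6.20 FPKM. Its transcript has 61.4% GC, and its log2 difference went from -0.59 to -0.37. Nfkb2, which encodes the p100 precursor of an NF-kB subunit, had 34.4, 36.8 and 32.6 FPKM against 26.7, 23.6 and 26.4 FPKM, and went from -0.42 to -0.23.

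Abca7, a lipid transporter, went from -0.35 to -0.18, and Slc35e1, a transporter family gene, from -0.33 to -0.25. The ubiquitin ligase adaptor Fbxo6 (-0.43 to -0.26), the antizyme gene Oaz2 (-0.44 to -0.36), Igsf8 (-0.57 to -0.40) and Ppp2r5b (-0.47 to -0.28) shrank likewise, and the groups stayed apart in each.

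No member of any of 27 gene lists was called, so the lists are described by their medians and by how many members separated the groups. In 17 of the 26 lists with at least 5 tested members the median was below 0, and in 20 the median came nearer to 0 with both trends removed. The median over all tested genes was -0.014 before and -0.017 after. Of all tested genes 12.4% lay wholly above PBS and 16.0% wholly below before removal, and 7.80% and 12.5% after. The list counts below are to be read beside these shares.

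**Figure D4:**
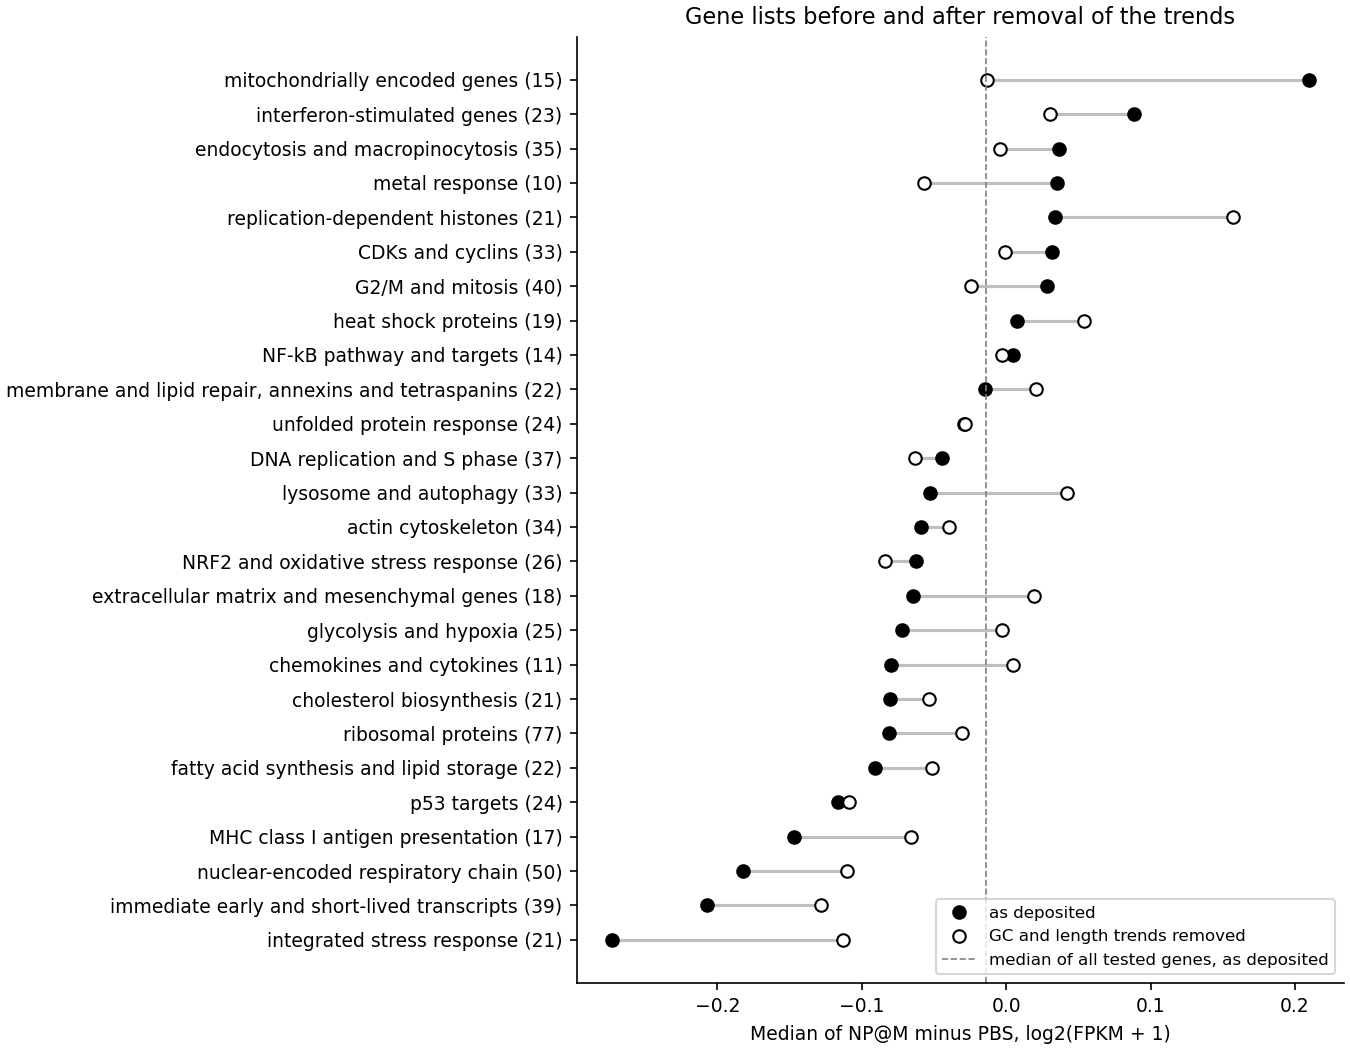
Median difference (NP@M minus PBS, log2(FPKM + 1)) of each gene list with its number of tested members, as deposited (filled) and with the GC and length trends removed (open). The integrated stress response list moves from -0.27 to -0.11 and mitochondrially encoded genes from 0.21 to -0.01, against -0.014 over all genes (dashed line).

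Genes of the integrated stress response, which cells use to limit translation and restore amino acid supply through ATF4, stood lowest. Of 21 tested members 20 were below 0 (median -0.27), and 13 lay wholly below PBS and 1 wholly above, against 16.0% and 12.4% of all genes. Their median GC content was 55.4%, against 50% for all genes. With both trends removed the list median was -0.11, with 10 members wholly below, against 12.5% of all genes. Relative to the 6-library mean the list stood at 0.15, 0.23 and 0.0076 in N1, N2 and N3 and at -0.028, -0.23 and -0.15 in N4, N5 and N6. The order of the libraries was that of the GC trend. After removal of both trends the list stood at 0.095, 0.081 and 0.014 with PBS and at -0.027, -0.079 and -0.081 with NP@M, so the groups stayed apart. Shmt2, of mitochondrial serine metabolism, had 95.0, 99.7 and 78.9 FPKM against 74.5, 60.5 and 64.3 FPKM (log2 -0.45, limma adjusted p = 0.448). The amino acid transporter subunit Slc3a2 had 56.5, 65.9 and 51.2 FPKM against 47.6, 41.5 and 44.2 FPKM (log2 -0.37). Atf4 itself overlapped, with 197.6 to 227.5 FPKM against 184.9 to 205.9 FPKM, as did Ddit3, the CHOP gene, with 13.99 to 17.1 against 13.1 to 16.6 FPKM. Vldlr, low in GC (43.8%), was the member above 0.

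Immediate early and short-lived transcripts, made within minutes of growth factor or stress signals and quickly degraded, stood lower in 33 of 39 members (median -0.21). Of the 39, 20 lay wholly below PBS and 2 wholly above, against 16.0% and 12.4% of all genes. With both trends removed 13 and 3 did so (median -0.13), against 12.5% and 7.80%. Relative to the 6-library mean the list stood at 0.11, 0.14 and 0.076 with PBS and at -0.018, -0.065 and -0.20 with NP@M. With both trends removed, N5 stood at 0.019 and N6 at -0.13, against 0.022 to 0.075 with PBS, so N6 stood furthest from PBS. Zfp36, which encodes a protein that destabilises AU-rich transcripts, had 16.2, 17.3 and 13.8 FPKM against 12.1, 11.7 and 8.53 FPKM (log2 -0.52, limma adjusted p = 0.448). Junb had 61.8, 62.3 and 50.9 FPKM against 46.9, 37.8 and 32.7 FPKM, and Fos 59.3, 57.9 and 62.6 FPKM against 55.2, 52.4 and 43.3 FPKM. In these 3 genes N6 was the lowest library. Id2 and Klf10 lay wholly above PBS.

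Nuclear genes of the respiratory chain and genes of the mitochondrial genome stood on opposite sides. Of 50 nuclear-encoded members 41 were below 0 (median -0.18). Wholly below PBS lay 17 and wholly above 1, against 16.0% and 12.4% of all genes. With both trends removed the median was -0.11, again with 17 wholly below, and 3 above, against 12.5% and 7.80%. Cox8a, a subunit of cytochrome c oxidase, had 131.9, 119.1 and 90.1 FPKM against 69.8, 57.2 and 68.3 FPKM (log2 -0.78, limma adjusted p = 0.448; -0.62 with the trends removed). Uqcr11, of complex III, had 21.2, 20.8 and 14.6 FPKM against 11.03, 6.53 and 8.94 FPKM (log2 -1.02, limma adjusted p = 0.448). In both genes N3 was the lowest PBS library, and for the whole list N3 (-0.037) stood with N4 (-0.037) rather than with N1 (0.12) and N2 (0.15).

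All 15 mitochondrially encoded genes were above 0 (median 0.21), and 8 lay wholly above PBS, against 12.4% of all genes. Among the 8, mt-Co1 (51.3%), mt-Nd4 (62.4%), mt-Atp6 (99.2%), mt-Co2 and mt-Co3 (both 100%) share much of their sequence with other genes. Reads of these could have been assigned to another copy. For mt-Nd6, mt-Cytb and mt-Nd2 the share was 0% to 8.08%. Mt-Atp8 was barely above 0 (log2 0.010). Their median GC content was 36.0%. With both trends removed the list median was -0.014, with 1 wholly above, against 7.80% of all genes. Mt-Nd6, a subunit of complex I, had 604.7, 553.4 and 621.8 FPKM against 867, 1000 and 657.8 FPKM (log2 0.48). Mt-Co1, of cytochrome c oxidase, had 4601, 4635 and 4471 FPKM against 5650, 5510 and 5212 FPKM (log2 0.26, limma adjusted p = 0.543; 0.067 with the trends removed). N5 held the highest value of mt-Nd6 and N4 that of mt-Co1.

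As deposited, the medians of the other lists with at least 5 tested members stood nearer to that of all genes. Of 34 actin cytoskeleton genes (median -0.059), 14 lay wholly below PBS and 4 wholly above, against 16.0% and 12.4% of all genes. With both trends removed 11 and 5 did so, against 12.5% and 7.80%. Of 22 genes of fatty acid synthesis and lipid storage, 8 lay wholly below and 1 wholly above as deposited, and 6 and 1 after. Targets of p53 were below 0 in 18 of 24 members (median -0.12, and -0.11 with both trends removed). As deposited 8 lay wholly below PBS and 2 wholly above, against 16.0% and 12.4% of all genes. The lowest p53 target was Btg2, described above. Mdm2, which encodes the ubiquitin ligase of p53, and Ccng1, a cyclin gene, lay wholly above PBS, also with both trends removed (log2 0.13 and 0.12). The apoptosis genes Bbc3 and Bax lay wholly below PBS as deposited and overlapped with the trends removed. With a mean of at least 5 FPKM the median of the list was -0.25. MHC class I antigen presentation had a median of -0.15 over 17 members (-0.066 with the trends removed). It had 3 members wholly below PBS and 4 wholly above, against 16.0% and 12.4% of all genes. Its median was -0.064 without PBS replicate 2 and -0.038 with a mean of at least 5 FPKM. Heat shock proteins had a median of 0.0076 over 19 members, with 5 wholly above PBS and 0 wholly below, against 12.4% and 16.0% of all genes. The deposited median was -0.016 without PBS replicate 3. With both trends removed it was 0.054, with 4 wholly above and 1 wholly below, against 7.80% and 12.5%. Dnaja1, Dnaja2 and Hsp90aa1, low in GC (41.2%, 42.6% and 43.7%), then no longer separated the groups. Hspa8, a constitutive chaperone, had 248.8, 269 and 252.9 FPKM against 304.1, 316.3 and 349.8 FPKM (log2 0.33, limma adjusted p = 0.448). Of the Hspa8 sequence 75.1% is shared with other genes. The inducible Hspa1b had only 0.105 to 0.139 FPKM with PBS and 0.096 to 0.184 FPKM with NP@M. At this level the log2(FPKM + 1) scale keeps differences near 0, so its 0.039 says little about a change. It is also among the 4 wholly above after removal.

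Genes of uptake and cargo handling lay on both sides of 0 as deposited. Endocytosis and macropinocytosis had 19 members above and 16 below 0 (median 0.037, and -0.0044 with the trends removed). As deposited 9 lay wholly above PBS and 8 wholly below, against 12.4% and 16.0% of all genes. After removal of both trends 11 lay wholly above and 5 wholly below, against 7.80% and 12.5% of all genes. The clathrin heavy chain gene Cltc had 32.8 to 39.9 FPKM with PBS and 37.6 to 43.5 FPKM with NP@M, and its log2 difference of 0.13 became -0.029 with both trends removed. Cav1, the caveolin of membrane pits, had 138.2 to 165.3 against 171 to 197.2 FPKM (log2 0.25, limma adjusted p = 0.476), and 0.071 with the trends removed. Lysosome and autophagy genes had a median of -0.052 over 33 members, with 4 wholly above PBS and 7 wholly below, against 12.4% and 16.0% of all genes. Once the trends were removed the median was 0.042, with 8 above and 4 below, against 7.80% and 12.5%. Without PBS replicate 2 the deposited median was -0.015. Lamp1, a lysosomal membrane protein, had 171.9 to 176.6 against 183.3 to 194.2 FPKM, and the autophagy receptor Sqstm1 158.3 to 190.6 against 141 to 153.2 FPKM, so neither overlapped and neither was called (limma adjusted p = 0.586 and 0.486).

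Sterol and oxidative stress genes were also without a call. Cholesterol biosynthesis had a median of -0.080 over 21 members, of -0.054 with both trends removed and of -0.036 without PBS replicate 2. As deposited 4 members lay wholly above PBS and 6 wholly below, against 12.4% and 16.0% of all genes. Hmox1, the haem oxygenase induced by oxidative stress, had 30.1, 32.2 and 30.1 FPKM against 25.5, 26.3 and 22.9 FPKM (log2 -0.30, limma adjusted p = 0.531). The metallothionein gene Mt1 had 136.6, 133.6 and 131.8 FPKM against 146.5, 144.4 and 157.9 FPKM (log2 0.16). Cyclin D1 (Ccnd1) and beta-actin (Actb) overlapped between the groups.

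Several of the largest differences fell on genes whose sequence is shared with others, so reads could have been assigned to one copy or another. In genes with at most 5% of their 50-base words found in other genes, the SD of log2 differences with both trends removed was 0.14 (6794 genes), and in those with over 50% it was 0.30 (896 genes). Gapdh, the glycolytic enzyme often used as a reference gene, had 2.20, 8.68 and 2.67 FPKM with PBS and 55.6, 18.3 and 21 FPKM with NP@M (log2 2.57, SE 1.69, limma adjusted p = 0.561). The groups did not overlap, and the mean was 6.998-fold higher. Yet Gapdh held only 0.809% to 2.71% of the reads of its sequence family with PBS and 6.97% to 17.1% with NP@M, the family being Gapdh and the 45 genes in the table with at least 20% of their words in it. Summed over the family, the level was 1163 ± 144 reads per M with PBS and 1184 ± 136 with NP@M (SD, n = 3), a ratio of 1.02, and the groups overlapped.

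**Figure D5:**
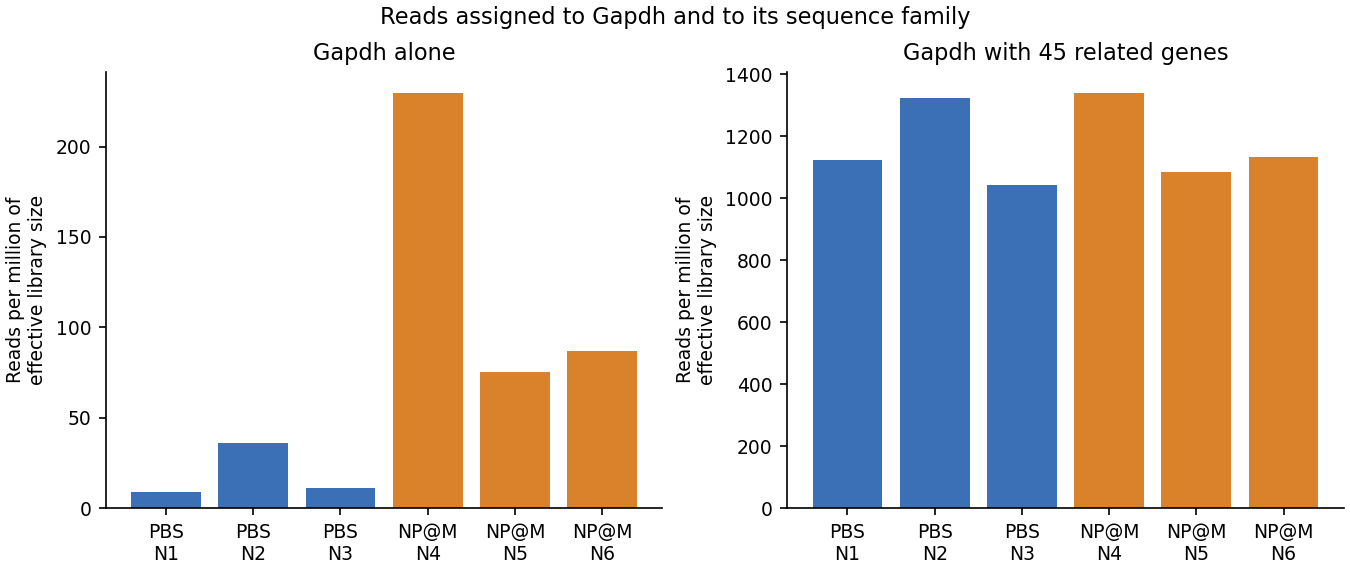
Bars give the reads per M of effective library size in each library for Gapdh alone (left) and for Gapdh with the 45 genes that share its sequence (right). The single gene is higher in all 3 NP@M libraries, while the family sum runs from 1043 to 1322 with PBS and from 1083 to 1339 with NP@M.

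Of the other families examined, that of Rps18 overlapped when summed and the rest stayed apart. The family of Rpl39, in which Rpl39 itself held 98.4% to 98.8% of the reads, was 1.59-fold higher, and that of Rps28 was 1.34-fold higher against 1.54-fold for the gene alone. The cyclophilin gene Ppia was 0.641 of PBS alone and 0.732 with its 10 related genes (PBS 804.1 ± 105, NP@M 588.6 ± 13.3 reads per M). Ppia held 59.8% of its family in N4 and 87.0% to 93.4% in the other 5 libraries. Hmga1b and Hmga1, a pair of chromatin protein genes that share most of their sequence, were together 0.692 of PBS. Rps18 stood apart alone (log2 -0.67), but with its 2 related genes it overlapped (258.8 ± 41.6 against 212.7 ± 17.7 reads per M). Of the 77 ribosomal protein genes tested 29 were above and 48 below 0 (median -0.081, and -0.036 without PBS replicate 2), and 12 lay wholly above PBS and 12 wholly below, against 12.4% and 16.0% of all genes.

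A short GC-rich transcript stood out by its size. Gm23935 (ENSMUSG00000076258), annotated as a microRNA gene at chr16:11144125-11144181 on the plus strand, and Gm24270 at chr9:56223715-56223771 on the minus strand hold the same 57 bases, of which 73.7% are G or C, shown in capitals because they place both genes at the end of the GC scale.
Gm23935: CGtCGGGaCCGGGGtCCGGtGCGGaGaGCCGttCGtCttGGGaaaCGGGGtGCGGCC
Gm24270: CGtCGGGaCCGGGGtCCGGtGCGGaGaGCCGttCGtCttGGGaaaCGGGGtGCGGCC
Gm23935 had 9473, 10340 and 9853 FPKM with PBS and 2259, 3911 and 5817 FPKM with NP@M, a mean of 0.404 of PBS. Gm24270 had 80.0, 116.7 and 45.5 FPKM against 23.4, 28.4 and 20.3 FPKM. Both pairs of groups were apart (log2 -1.41 and -1.62, limma adjusted p = 0.448 for each). Because the sequences are identical, reads of one cannot be told from those of the other, and the split between them is uncertain. The annotation as a microRNA gene was taken as given, and what RNA these reads stem from was not tested. With both trends removed the differences were -0.87 and -1.07, and the groups of Gm24270 overlapped.

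The rarest transcripts were detected less widely with the carrier. At least 1 read was found in 12005, 11998 and 11953 genes in N1, N2 and N3 and in 11835, 11851 and 11761 genes in N4, N5 and N6 (exact permutation p = 0.10, the smallest possible, adjusted 0.225). At 10 reads or more the numbers were 11050, 11126 and 11059 against 11061, 11036 and 11118, and overlapped. Genes with reads in every PBS library and 0 in every NP@M library numbered 81, against 15 with the reverse pattern. They held at most 17 reads in a library, and 6 of the 81 and 4 of the 15 passed the filter on low values. Among the 81 were 35 protein-coding genes, 17 long intergenic RNAs and 9 antisense RNAs. Ano1, a chloride channel, had 7, 6 and 10 reads and Pde1b, a phosphodiesterase, 6, 4 and 15 reads with PBS; both were picked with their values known. In the reverse direction, Zfp981, a zinc finger gene, had 9, 7 and 7 reads with NP@M. A count of 0 allows up to 3 reads in a library, and of the 81 and 15 genes Gm24837 was the one called. Limma also called Gm2768 with no filter (adjusted p = 0.00288) and Gm10059 with a pseudocount of 0.1 (adjusted p = 0.00169), both with reads in the NP@M libraries alone.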

How the data were processed

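RNA was sequenced from 12 CT26 libraries, from 1 ug of total RNA each with an Illumina TruSeq kit, per the labels' protocols. The extraction text mentions retinas, although the cell line label is CT26. The authors deposited FPKM values for 12584 genes; Bowtie 0.12.2 and mm8 are named per the submitters' processing notes, while identifiers and coordinates matched GRCm38 (12571 genes in GENCODE M21). The counter and strand setting are not given in the sources used here. FPKM times length gave whole multiples of a step in each library (relative tolerance 1e-06), so reads and an effective library size were recovered: 28.2 to 31.1 M in N1 to N6, and 7.13 to 8.4 M in the other 6 libraries, whose reads in the table were 12.8 to 14.9 M.

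limma 3.58.1 in R 4.3.3 was fitted to log2(FPKM + 1) over all 12 libraries, for genes with at least 1 FPKM in at least 3 of the 12. Some tested genes were therefore near 0 in both compared groups, such as Gdf15 (mean 0.023 FPKM with PBS and 0 with NP@M). The log2(FPKM + 1) scale understates changes of low genes. GC content came from the longest transcript. Trends were loess curves per library on deviations from the 6-library mean (span 0.3, or 0.4 for both terms). Shared sequence was the share of 50-base words, taken every 5 bases, found in other genes. Single values were compared by exact two-sided permutation tests over 20 splits. The steps were run on simulated data in which every NP@M library held the same GC trend and the PBS libraries none. In the real libraries the trend differed within each group, so the simulation does not cover that case.

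Named were the called gene, the 12 genes of smallest p in each direction whose groups did not overlap, with a group mean of at least 5 FPKM and no predicted-locus symbol, the 2 members of each list furthest along its median, and 14 genes by name; not all are printed, and genes outside this rule were picked with their values known. The members, lists and rules were chosen with earlier results of these data known. Alternatives were other scalings, filters, pseudocounts, trends, fits and leaving out each library. Quantile normalization, scaling to a common median ratio and the filter on a mean of at least 5 FPKM were computed over all 12 libraries.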

Additional observations from a re-analysis of the deposited data

How the results depend on the processing

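No paired analysis was possible because the titles number the libraries in a single series and no number is shared between the groups. The limits are few libraries, FPKM without the authors' read counts, GC content taken from annotated transcripts, and shared sequence. The trend on GC content kept its direction in every setting run, with a difference of 0.33 to 0.54 when 1 library was left out. The number of genes called, 1 as reported, was 7 with quantile normalization, 11 with scaling to the reads in the table, 2 with a pseudocount of 0.1, 4 with no filter, 0 with a mean of at least 5 FPKM (883 at an unadjusted p under 0.05), 2 with only the 6 libraries compared and 0 with limma voom on the recovered reads. Leaving out 1 library gave 1 to 2 calls, the second being Gm25965 without PBS replicate 3 and Gm13419 without NP@M replicate 5. With the GC and length trends removed, it was also 1, and became 4 with quantile normalization, 5 with scaling to the reads in the table, 0 with a mean of at least 5 FPKM (489 at an unadjusted p under 0.05), 3 with only the 6 libraries compared, 2 at an adjusted p under 0.1 and 1 to 2 when 1 library was left out (2 without NP@M replicate 5). List members called went from 0 to 1 (Rps28) with quantile normalization. Gm24837 was called in 17 of 18 settings, the exception being limma voom; a mean of at least 5 FPKM leaves it out. Rps28 was called with quantile normalization (adjusted p = 0.0124), as were Cactin (0.0432) and Rps10-ps1 (0.0432), and Cactin with scaling to the reads in the table (0.0350). Of 1542 values of 86 single genes, 8 changed sign: with the GC trend removed and with both trends removed, Tfrc to -0.055 and -0.065, Chuk to -0.012 and -0.019 and Cltc to -0.016 and -0.029; Oas1a, -0.0073 without NP@M replicate 4 and up to 0.202 without others; and Hist1h1c, -0.0046 without NP@M replicate 5 and up to 0.0622 without others. Medians of 10 of 26 lists changed sign with both trends removed; the cause was not tested. A version with the GC content of genes including introns was not run, as no genome sequence was used here. Restricting the trends to genes with at most 5% of shared words was chosen after seeing the data and gave a GC difference of 0.44.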

Other observations

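The order of genes in the deposited table followed this comparison. Among its first 100 rows the PBS and NP@M groups did not overlap in 100 of 100 genes, in the rows from there to 500 in 379 of 395 tested genes (95.9%) and in those past row 8000 in 319 of 2606 (12.2%), against 28.4% of all tested genes. No source used here states the rule behind that order.

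Replication-dependent histone genes, short transcripts of S phase that mostly lack a poly(A) tail, moved away from 0 when the trends were removed. The median over 21 members went from 0.034 to 0.16, and members wholly above PBS went from 1 to 5, those wholly below from 3 to 2. Over all genes these shares were 12.4% and 16.0% before and 7.80% and 12.5% after. Without NP@M replicate 5 the deposited median was -0.0046. Hist1h1c, a linker histone gene, had 20.8, 19.99 and 20.2 FPKM with PBS and 20.5, 22.01 and 19.97 FPKM with NP@M. It made up most of the list, whose 26 genes in the table summed to 28.59 to 29.85 FPKM with PBS and 31.42 to 31.8 FPKM with NP@M. The remaining members were thus low on average. How much of the shift comes from taking the curves out of values near 0 was not tested. Genes of cell division showed small medians: 0.028 over 40 G2/M genes and 0.032 over 33 CDKs and cyclins, which became -0.024 and -0.0011 with both trends removed. Without PBS replicate 2 the G2/M median was 0.0048, and with a mean of at least 5 FPKM that of the CDKs and cyclins was -0.032.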
